A study of Mus musculus with 4 samples.

Results

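A set of 10 genes that mark the birth of neurons were followed in whole mouse embryos that lack the orphan nuclear receptor Nr6a1, formerly called Gcnf. They are Neurog1, Neurog2, Neurod1, Neurod4, Nhlh1, Nhlh2, Tubb3, Dcx, Elavl3 and Stmn2. Members were taken as every probe set that the platform annotation gives to 1 of these symbols alone, which found 20 of the 45037 probe sets tested and all 10 genes. Signal was measured on Affymetrix expression arrays in 2 Gcnf-/- embryos, homozygous for the null allele in every cell, and 2 wt embryos, all labelled E9.0. Each array held RNA of 1 whole embryo, and genotypes were read from yolk sac DNA. The study's methods extend the collection past the labelled stage, and place the line on a C56BL/6 background, as they spell it. The litter and somite number of each embryo were not found in those methods or in the labels. The study cites earlier work in which embryos without Nr6a1 developed more slowly, did not complete turning and died soon after the labelled stage. Differences in stage among the 4 embryos were not tested.

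Neurons arise from dividing progenitors of the neural tube, the cranial placodes and the neural crest. Proneural basic helix-loop-helix (bHLH) factors such as Neurog1 and Neurog2 start the process in cells that escape Notch signalling, and a second tier of bHLH factors, among them Neurod1, Neurod4, Nhlh1 and Nhlh2, acts in cells already committed. The new neuron then makes a cytoskeleton and a set of RNA-binding proteins of its own, to which Tubb3, Dcx, Elavl3 and Stmn2 belong. At the stage sampled, the first neurons of the mouse are appearing in the cranial ganglia, the brain and the anterior spinal cord, so that they are a small share of a whole embryo. In such bulk RNA, fewer cells of a type and less RNA per cell cannot be told apart.

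The 4 arrays were compared as a whole first. The targeted gene was not lower in Gcnf-/- embryos: its 5 probe sets stood at log2 fold changes of 0.05 to 0.56 (Gcnf-/- minus wt), and where they lie relative to the deleted part is not known here. By Xist and the Y-linked Eif2s3y, wt replicate 1 was the only female. Poly-A spikes averaged 9.52 in that embryo and 10.22 to 10.27 in the others, and 18S RNA control probe sets averaged 10.78 in Gcnf-/- and 9.72 in wt embryos. The difference of the 3′ and 5′ control probe sets of Gapdh was -0.09 in both genotypes, and that of Actb was 0.37 in Gcnf-/- and 0.46 in wt embryos. Markers of other tissues were read beside the members, for heart muscle (8 measured), primitive red cells (7), yolk sac endoderm (8) and neural crest (7). Their mean log2 signals were 11.65 to 11.72 in Gcnf-/- and 11.13 to 11.39 in wt embryos for heart muscle, and 12.31 to 12.42 in Gcnf-/- and 11.77 to 11.98 in wt embryos for red cells. They were 13.04 to 13.14 in Gcnf-/- and 13.22 to 13.31 in wt embryos for yolk sac endoderm, and 8.59 to 8.65 in Gcnf-/- and 8.88 to 8.91 in wt embryos for neural crest. All 8 heart and all 7 red cell markers lay above wt, and 7 of 8 yolk sac and 5 of 7 neural crest markers below. These differences stand beside every value given for the neuron genes, and their part in those values was not tested.

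Most neurogenesis and early neuron genes lay above wt in the Gcnf-/- embryos, and none passed the threshold of an adjusted p of 0.05 with a 2-fold change. The neuronal microtubule regulator Stmn2, the RNA-binding protein gene Elavl3 and the bHLH factor Nhlh2 stood farthest from wt, at 2.17-fold, 1.72-fold and 1.83-fold above it. Neurog2 was the only gene below. Each gene is represented here by its brightest probe set over the 4 arrays. By this measure 9 of 10 genes lay above wt, with a median log2 fold change of 0.30, whereas 47.2% of the 18193 genes tested lay above wt, with a median of -0.01.

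Over all 20 member probe sets, 16 lay above and 3 below wt, and 1 of Dcx had equal means to within 0.005. In limma, 0 were called lower and 0 higher, where 0.0777% of all probe sets were called lower and 0.304% higher. At an unadjusted p under 0.05, 0 member probe sets were lower and 6 were higher, against 10.3% lower and 9.83% higher over all probe sets. These 6 are both probe sets of Stmn2, those of Nhlh2 and Tubb3, and 2 of the 3 of Elavl3. The embryos of the genotypes did not overlap for 11 member probe sets, all higher in Gcnf-/- (55.0%), and for 0 lower, where 23.5% of all probe sets were higher and 27.3% lower without overlap. With 2 arrays a genotype, an exact two-sided permutation test cannot go below p = 0.333.

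**Figure D1:**
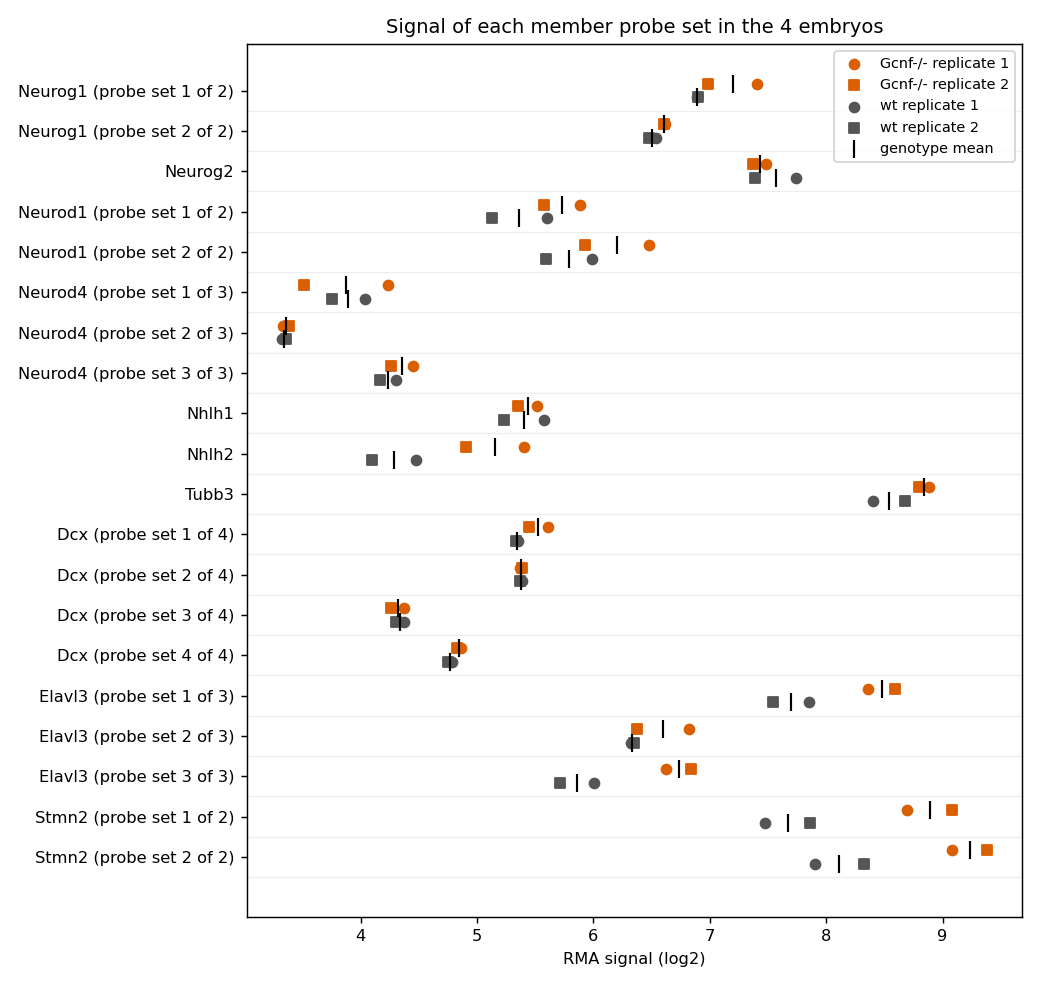
RMA log2 signal (horizontal axis) of each of the 20 member probe sets (rows) in each embryo; orange is Gcnf-/-, grey is wt, circles and squares are replicates 1 and 2, and vertical ticks are genotype means. The orange and grey points of both Stmn2 probe sets lie apart, by 0.83 and 0.76 at their nearest, whereas those of Neurog2, Nhlh1 and Neurod1 overlap.

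Neurog1 and Neurog2, which choose progenitors for a neuronal fate, stood on opposite sides of wt by small amounts. The brighter Neurog1 probe set read 7.41 and 6.98 in Gcnf-/- embryos, against 6.89 and 6.90 in wt embryos. Gcnf-/- replicate 1 alone stood well clear of the wt embryos, and replicate 2 lay 0.09 above the higher of them. The log2 fold change was 0.30 ± 0.15 (limma's moderated SE, 2 embryos of each genotype, adjusted p = 0.336) and the other Neurog1 probe set stood at 0.10 ± 0.07. Neurog2 read 7.49 and 7.37 in Gcnf-/- embryos, against 7.74 and 7.39 in wt embryos, so that the genotypes overlapped. Its log2 fold change was -0.14, with a 95% interval from -0.48 to 0.20.

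Neurod1, which promotes the differentiation of committed neurons and endocrine cells, spread as widely within a genotype as between them. Its brighter probe set read 6.48 and 5.93 in Gcnf-/- embryos, against 5.99 and 5.59 in wt embryos. The lower Gcnf-/- embryo lay just under the higher wt embryo. The log2 fold changes of its probe sets were 0.42 ± 0.22 and 0.37 ± 0.19 (SE, limma adjusted p = 0.375 and 0.352). Neurod4, a related factor that works with the neurogenins, was dim, with 3 probe sets between 3.32 and 4.45 in all embryos and log2 fold changes of -0.02, 0.02 and 0.12. All 3 overlapped between genotypes.

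Nhlh1 and Nhlh2 encode closely related bHLH factors of newborn neurons, and their values differed in size. Nhlh2 read 5.41 and 4.90 in Gcnf-/- embryos, against 4.48 and 4.10 in wt embryos. Both Gcnf-/- embryos lay above both wt embryos, the nearest 2 being 0.43 apart, which was less than the span of the Gcnf-/- embryos (0.50) and more than that of the wt embryos (0.38). Its log2 fold change was 0.87 ± 0.21 (SE, limma adjusted p = 0.119), with a 95% interval from 0.34 to 1.39. Nhlh1 read 5.52 and 5.35 in Gcnf-/- embryos, against 5.57 and 5.23 in wt embryos, with the wt values on both sides of the Gcnf-/- values. Its log2 fold change was 0.03, with an interval from -0.31 to 0.38. The difference between these fold changes was not tested, and both probe sets lay below the median signal of the array.

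The sequence before the start site is shown for this pair, the most alike in kind and apart in value, because bHLH factors bind the E-box CANNTG. The RefSeq promoter table on GRCm38.p6 held windows for 9 of the 10 genes, without Stmn2. Both strands of the 250 bases before each start were searched, the motif being its own reverse complement, and E-boxes are in capitals in the lines that follow. For Nhlh2 (chr3:102009895-102010110, plus strand) the run stops where the annotated gene begins, 216 bases in, and for Nhlh1 (chr1:172057597-172057846, minus strand) it is whole.
Nhlh2: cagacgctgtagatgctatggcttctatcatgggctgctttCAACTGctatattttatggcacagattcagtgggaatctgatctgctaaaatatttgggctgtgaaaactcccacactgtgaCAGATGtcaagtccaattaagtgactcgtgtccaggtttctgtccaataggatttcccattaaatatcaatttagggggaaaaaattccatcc
Nhlh1: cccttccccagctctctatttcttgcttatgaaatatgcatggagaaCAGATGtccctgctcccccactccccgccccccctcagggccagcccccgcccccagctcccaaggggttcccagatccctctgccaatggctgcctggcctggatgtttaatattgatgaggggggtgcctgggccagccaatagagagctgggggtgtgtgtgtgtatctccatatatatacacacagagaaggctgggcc
The window of Nhlh2 held 2 E-boxes, CAACTG at -209 and CAGATG at -127 from the start. That of Nhlh1 held 1, CAGATG at -203. Those of Elavl3 held 2 (CACCTG and CAGCTG) and Neurod1 held 1 (CATATG), while the windows of Neurog1, Neurog2, Neurod4, Tubb3 and Dcx held 0. Both E-boxes of Elavl3, and the whole window of Neurog2, lay inside the annotated gene. An E-box occurred in 66.2% of all 32851 windows and 2 or more in 31.8%. Among the 11 member windows, 4 held an E-box, and these belonged to 4 of the 9 members. A match is a run of letters and not a measured site.

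Stmn2, also called SCG10, regulates microtubules in growing axons and was the 1 member past 2-fold. The gene spans chr3:8509527-8561604 on GRCm38.p6. Its brighter probe set read 9.08 and 9.38 in Gcnf-/- embryos, against 7.90 and 8.32 in wt embryos. The other read 8.69 and 9.09 in Gcnf-/- embryos, against 7.47 and 7.86 in wt embryos. In both, Gcnf-/- replicate 2 was the highest embryo and wt replicate 1 the lowest, and the genotypes were farther apart than the embryos of either. The log2 fold changes were 1.12 ± 0.17 and 1.22 ± 0.18 (SE, n = 2 per genotype, limma adjusted p = 0.0641 and 0.0620), both short of the adjusted threshold. Of all genes tested, 0.440% had a log2 fold change at least as high as that of Stmn2. It was called by both probe sets when eBayes used an intensity trend (adjusted p = 0.0193 and 0.0184), among brighter probe sets alone (0.0307 and 0.0298) and after repeated quantile normalisation (0.0493 and 0.0481). Without wt replicate 1, the female with low spike signal, the brighter probe set stood at 0.91, and without Gcnf-/- replicate 2 at 0.97, both under 2-fold, while the other probe set stayed at 1.02 or higher whichever array was left out.

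Tubb3, the β-tubulin of neurons, read 8.89 and 8.79 in Gcnf-/- embryos, against 8.40 and 8.68 in wt embryos. Its genotypes did not overlap, but the gap of 0.11 was smaller than the span of 0.28 between the wt embryos. The log2 fold change was 0.30 ± 0.11 (SE, limma adjusted p = 0.235), and 0.16 without wt replicate 1. Dcx encodes doublecortin, a microtubule-binding protein of migrating neurons. Its 4 probe sets lay within 4.26 to 5.61 in all embryos, with log2 fold changes of -0.02, 0.00, 0.07 and 0.19. The brightest of them read 5.61 and 5.45 in Gcnf-/- embryos, against 5.35 and 5.33 in wt embryos (adjusted p = 0.297), and 2 of the 4 overlapped. Dcx lies on the X chromosome, and its brightest probe set differed by 0.02 between the female and the male wt embryo.

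Elavl3 (chr9:22015005-22052146), also called HuC, encodes an RNA-binding protein that stabilises messages of differentiating neurons. Its brightest probe set read 8.36 and 8.60 in Gcnf-/- embryos, against 7.85 and 7.54 in wt embryos. A second read 6.63 and 6.84 in Gcnf-/- embryos, against 6.01 and 5.71 in wt embryos. Both Gcnf-/- embryos lay above both wt embryos by at least 0.51 in these probe sets, and the log2 fold changes were 0.78 ± 0.14 and 0.87 ± 0.13 (SE, limma adjusted p = 0.0811 and 0.0614). The remaining probe set read 6.82 and 6.38 in Gcnf-/- embryos, against 6.32 and 6.35 in wt embryos. In this one Gcnf-/- replicate 2 lay 0.03 above the higher wt embryo, and the fold change was 0.27 ± 0.15 (adjusted p = 0.411). The probe sets of Elavl3 therefore shared their direction and not their size.

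**Figure D2:**
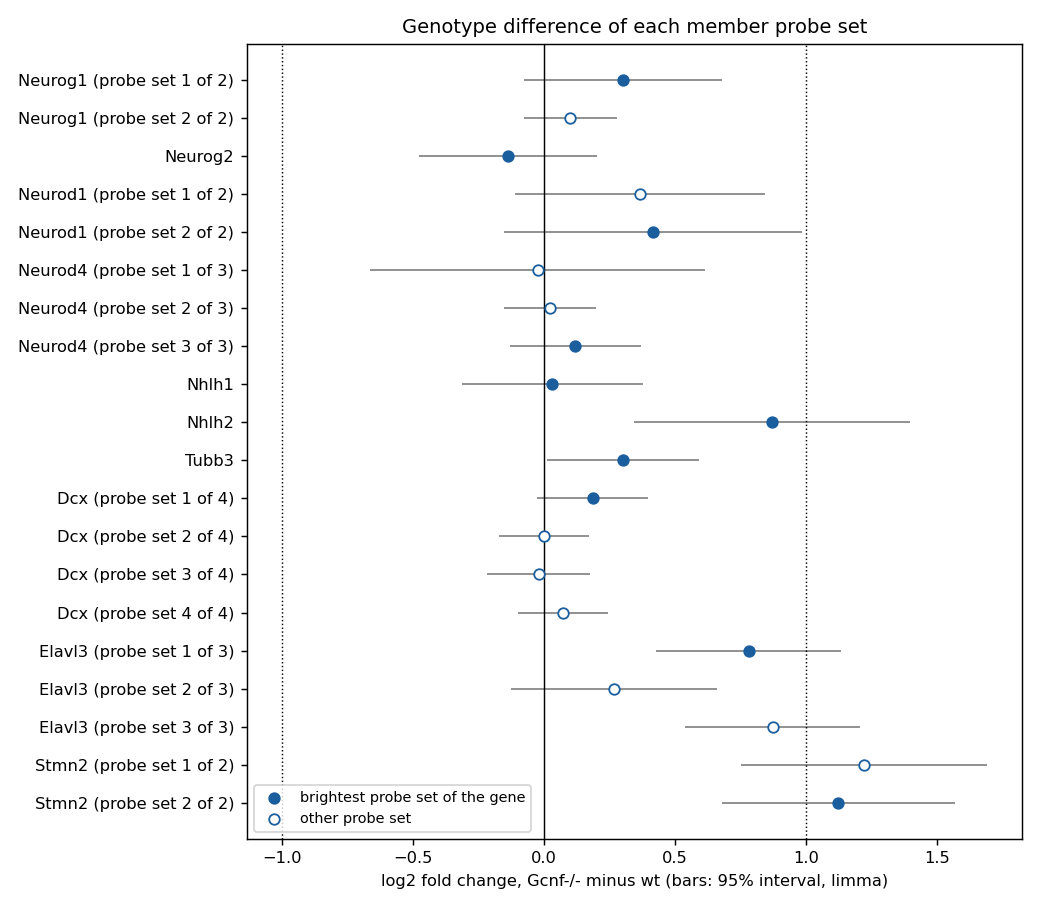
Log2 fold change (horizontal axis, Gcnf-/- minus wt) of the 20 member probe sets (rows) with limma's 95% interval as bars, n = 2 embryos per genotype; filled points are the brightest probe set of a gene and dotted lines mark a 2-fold change. The Stmn2 points lie at 1.12 and 1.22, and those of Neurod4 and Dcx gather around 0.

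By role, the 6 bHLH factors had a median log2 fold change of 0.21 (-0.14 to 0.87) and the 4 cytoskeletal and RNA-binding genes one of 0.54 (0.19 to 1.12). The 95% interval lay wholly within 2-fold of wt for 7 of the 10 genes, the exceptions being Nhlh2, Elavl3 and Stmn2. It left out 0 for 4 genes, which were these 3 and Tubb3. The embryos of a genotype also differed among themselves. In all 6 bHLH factors Gcnf-/- replicate 1 read above Gcnf-/- replicate 2, by 0.11 to 0.55, and in 5 of 6 wt replicate 1 read above wt replicate 2. Of the 4 cytoskeletal and RNA-binding genes, replicate 1 read above replicate 2 in 2 in Gcnf-/- and in 2 in wt. Replicate 1 minus 2 was 0.16 in Gcnf-/- and 0.02 in wt for Dcx, and -0.30 in Gcnf-/- and -0.42 in wt for Stmn2. The share of all genes with replicate 1 above replicate 2 was not counted. These counts therefore cannot be read as a trait of the members, and no label pairs embryos of the same number. A difference between the roles was not tested.

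The direction of 8 of the 10 genes was the same whichever array was left out. Nhlh2 ranged from 0.62 without Gcnf-/- replicate 1 to 1.12 without Gcnf-/- replicate 2, and Elavl3 from 0.62 without wt replicate 2 to 0.94 without wt replicate 1. Neurog1 shrank to 0.09 and Neurod1 to 0.14 without Gcnf-/- replicate 1. Neurod4, at 0.03 without Gcnf-/- replicate 1, kept its side by a margin too small to read, and Neurog2 and Nhlh1 crossed 0. The median over the 10 genes ran from 0.12 without Gcnf-/- replicate 1 to 0.43 without Gcnf-/- replicate 2.

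**Figure D3:**
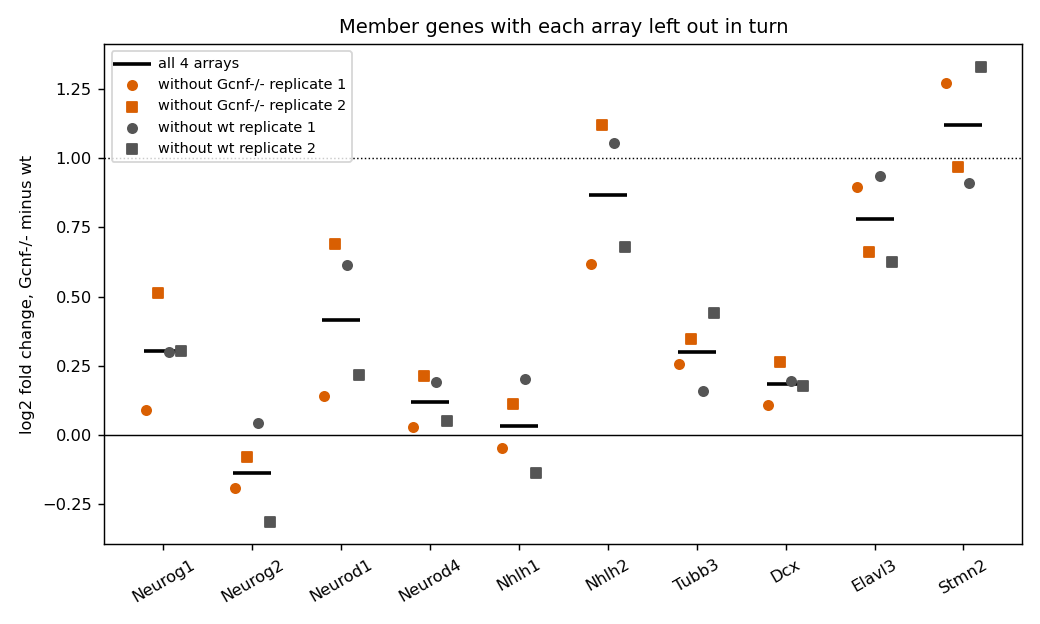
Log2 fold change (vertical axis, Gcnf-/- minus wt) of each member gene by its brightest probe set, with all 4 arrays (bars) and with each array left out (points, coloured by the genotype of the array left out; orange Gcnf-/-, grey wt); the dotted line marks a 2-fold change. Stmn2 stays between 0.91 and 1.33, and Neurog2 and Nhlh1 cross 0.

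The rest of the neurogenesis programme was read from 7 wider lists, with 140 of 150 genes measured. As in the members, 0 genes were called lower and 0 higher, where 0.121% of all genes were called lower and 0.423% higher. Over these lists 58 genes lay above and 82 below wt, and the median log2 fold change was -0.04. At an adjusted p of 0.05 whatever the fold, 1 was lower and 3 were higher, against 0.374% lower and 1.02% higher of all genes. At an unadjusted p under 0.05, 26 were lower (18.6%) and 25 higher (17.9%), against 11.9% lower and 11.9% higher of all genes.

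Upstream of neuron birth, the neural progenitor list had 13 of 19 genes below wt and a median of -0.07. The radial glial fatty acid carrier Fabp7 stood apart from it, at 10.59 and 10.34 in Gcnf-/- embryos, against 7.94 and 8.84 in wt embryos. Both Gcnf-/- embryos lay well above both wt embryos, which themselves differed by 0.90, and the log2 fold change was 2.07 ± 0.30 (SE, limma adjusted p = 0.0579), or 1.62 without wt replicate 1. Fabp7 was called in 4 alternative settings and not in the others, its adjusted p running from 0.0158 to 0.276. Sox1, a factor of the neural plate, stood at 0.46, Sox9 at -0.38 and Dbx1 at -0.39. Sox2, Sox3 and Pax6, which maintain progenitors and were named after their values were seen, stood at -0.07, -0.03 and -0.14.

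The Notch list, which holds the lateral inhibition that limits how many progenitors differentiate, had 12 of 20 genes below wt and a median of -0.02. Gadd45g, which is made in cells leaving the progenitor state, stood at 0.54 and Lfng, a glycosyltransferase that modifies Notch, at -0.50 (adjusted p = 0.0842 and 0.109). Lfng is also expressed in the presomitic mesoderm, the source of the somites. The study cites earlier work that found its cyclic expression there much reduced without Nr6a1. Arrays of whole embryos do not separate that tissue from neural tissue. Mib1, which activates Notch ligands, stood at -0.16 and the Notch target Hey2 at -0.13. In the list of other proneural and commitment factors, 9 of 18 lay above wt with a median of 0.04. Its member Btg2, an antiproliferative gene of progenitors about to form neurons, was 1.55-fold higher in Gcnf-/- embryos (log2 0.64 ± 0.07, SE, limma adjusted p = 0.0438), short of 2-fold. Ebf1 and Hes6, which promote differentiation, stood at 0.45 and 0.36, and Ebf3, of the same family as Ebf1, at -0.42.

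Of 22 measured regulators of spinal and hindbrain neuron subtypes, 19 lay below wt with a median of -0.17. At an unadjusted p under 0.05 there were 5 lower (22.7%) and 0 higher, against 11.9% lower and 11.9% higher of all genes. The list was dim, with mean signals of 6.28 and 6.30 in Gcnf-/- and 6.51 in both wt embryos, under the array's median of 6.84. Nkx2-2, a homeodomain factor of the ventral neural tube, read 5.26 and 5.22 in Gcnf-/- embryos, against 6.22 and 6.18 in wt embryos. It was lower at an adjusted p of 0.0166 (log2 fold change -0.96 ± 0.07, SE), just short of 2-fold, and the embryos of each genotype differed by less than 0.05. Olig2, a factor of motor neuron progenitors, stood at -0.80, Mnx1, of motor neurons themselves, at -0.51, and Lhx5, of interneurons, at -0.37, none of which passed. For Olig2 the Gcnf-/- embryos differed by 0.66, more than the gap of 0.29 between the genotypes. The 12 placode and sensory neuron regulators were split, with 6 above and 6 below wt and a median of 0.03. At an unadjusted p under 0.05, 4 were lower (33.3%) and 2 higher (16.7%), beside the same 11.9% each way of all genes. The lower ones were Eya1 at -0.93 and Six4 at -0.52, partners in placode development, the sensory neuron factor Pou4f1 at -0.40 and the receptor gene Ret at -0.43. The higher ones, named after their values were seen, were Isl1, a factor of sensory and motor neurons, at 0.50 and Pax3, of the dorsal neural tube and neural crest, at 0.22. Which tissue of the whole embryo gave these signals was not tested.

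The other genes of neuron structure lay on both sides of wt. Of 32 cytoskeletal, RNA-binding and synaptic genes, 17 lay above and 15 below wt, with a median of 0.05. At an unadjusted p under 0.05 there were 9 lower (28%) and 10 higher (31%), against 11.9% lower and 11.9% higher of all genes. Map2, a microtubule protein of dendrites, read 8.18 and 8.20 in Gcnf-/- embryos, against 7.44 and 7.43 in wt embryos, and was 1.69-fold higher (log2 0.76 ± 0.07, SE, limma adjusted p = 0.0282). The kinesin gene Kif5a stood at 0.51. On the other side, the neurofilament gene Nefm stood at -0.75 and Elavl2, of the same family as Elavl3, at -0.60 (adjusted p = 0.0553 and 0.0507). Among 18 axon guidance and adhesion genes, 10 lay above and 8 below wt, with a median of 0.03. At an unadjusted p under 0.05, 2 were lower (11.1%) and 5 higher (27.8%), beside the same 11.9% each way of all genes. The receptor gene Epha4 was 1.63-fold higher (log2 0.70 ± 0.08, SE, limma adjusted p = 0.0414), L1cam stood at 0.52, Nrp1 at 0.31 and Sema3a at -0.43.

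**Figure D4:**
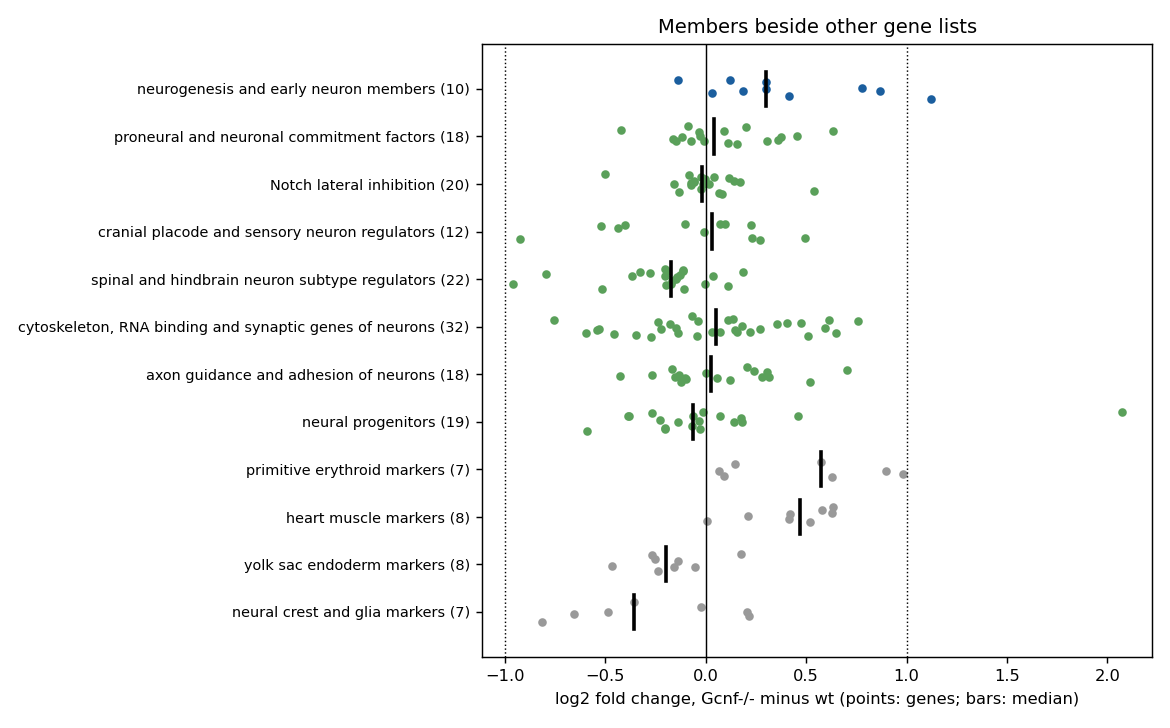
Log2 fold change (horizontal axis, Gcnf-/- minus wt) of each measured gene (points) in the member list, the 7 wider neurogenesis lists and the 4 marker lists of other cell types, with the number of genes in brackets and the median as a bar; dotted lines mark a 2-fold change. The members' median is 0.30, those of heart muscle and primitive red cell markers are 0.47 and 0.57, and the single point past 2 is Fabp7.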

How the data were processed

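The deposited values are log2 signals from RMA (robust multi-array average), by which the authors corrected background, quantile-normalised the arrays and summarised probes into probe sets. The sources used here name no version. Quantile normalisation hides shifts shared by most transcripts, and unspecific signal shrinks the fold changes of dim probe sets, among them 14 of the 20 member probe sets below the array's median. No detection calls were used.

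Of 45101 probe sets, 64 controls were left out of testing. Platform symbols were checked through Entrez identifiers against RefSeq of GRCm38.p6 (99.4% of single-symbol probe sets matched, 0 symbols changed). Genotype was the only term in limma 3.58.1 (R 4.3.3; lmFit, eBayes), Gcnf-/- minus wt, with Benjamini-Hochberg adjustment over 45037 probe sets. Called means an adjusted p of 0.05 or lower and at least 2-fold, as in the study's methods. Moderated SEs and pointwise 95% intervals draw on the spread of all probe sets. The number of arrays limits the precision. The fit was tested on simulated data, with 50 probe sets planted at each size. Of those planted at a log2 change of 1, the fold threshold itself, 40% were called, and of those at 1.5, 96%.

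The members and lists were chosen with earlier results of these data known. Of the wider lists, called genes or else up to 4 with the smallest p were named. Alternatives were a replicate block, each array left out, a filter on dim probe sets, 2 further normalisations, 2 eBayes options, no fold threshold and other choices of probe set.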

Additional observations from a re-analysis of the deposited data

Results flagged for a closer look

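The 18S RNA control probe sets, which the comparison of genes leaves out, read higher in Gcnf-/- than in wt embryos by 1.06 on the log2 scale, with 10.83 and 10.74 in Gcnf-/- embryos and 9.45 and 9.99 in wt embryos; a signal outside the main measurement above its level in wt put it here, and its part in the values of the neuron genes was not tested.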

How the results depend on the processing

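The count of member probe sets called lower was 0 in all 11 alternative fits. The count called higher was 2, both of Stmn2, among brighter probe sets, after repeated quantile normalisation and with an intensity trend, and 0 in the other 8 fits; the cause was not tested. At an unadjusted p under 0.05 there were 0 to 1 lower and 5 to 9 higher with 1 array left out. With the replicate number as a block, 7 were higher and 0 were called, with 1 residual degree of freedom. Deviations of same-numbered embryos correlated at 0.06 over probe sets. No label says that the number marks a litter or batch, and this value cannot decide whether such embryos shared one. In the wider lists 1 gene, Fabp7, was called higher among brighter probe sets, with repeated quantile normalisation, median centring or an intensity trend, and without a fold threshold 1 was lower and 3 higher by construction. With each array left out in turn, the log2 fold change of Neurog2 ran from -0.31 to 0.041, above 0 without wt replicate 1. That of Nhlh1 ran from -0.14 to 0.20, below 0 without wt replicate 2 (-0.14) or Gcnf-/- replicate 1 (-0.05). Neurod4 stood at -0.024 when probe sets with shared sequence were left out. None of these genes was called in any fit. The median over members was 0.25 to 0.30 under other scalings or probe sets. Among brighter probe sets it was 0.30, but only 6 of the 20 member probe sets remained there, so not all members entered it. Fits without 1 array assume that a lone embryo varies like the other genotype.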
